A study of Mus musculus with 3 samples.

Results

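The small leucine-rich proteoglycans are secreted matrix proteins, and 9 of their genes are described here: Dcn, Bgn, Lum, Fmod, Ogn, Aspn, Prelp, Omd and Podn. They were chosen by family membership and name, as the rows of those symbols in the deposited expression table of 56833 genes. All 9 were in the table and all 9 had a mean of at least 50 normalized counts over the libraries, as did 11873 genes in all. The cells came from ankle synovium of mice with the genotype Efhd1CreER; Ai9, in which a CreER recombinase expressed from Efhd1 switches on the red reporter tdTomato. Cells sorted for tdTomato, which the labels call telocytes, spent 24 h on collagen-coated plates before their RNA was sequenced in bulk. The plates had a stiffness of 0.2 kPa, called soft here, 8 kPa, called intermediate, and 64 kPa, called stiff. The design asks how gene expression in these cells depends on the stiffness of the surface. Each level had 1 library, and all 3 shared the genotype, the reporter and the sort, and unsorted or uncultured cells were not analysed here. No difference below therefore has a replicate check, and stiffness cannot be told apart from differences between single cultures.

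A small leucine-rich proteoglycan has a core protein of leucine-rich repeats, and most members carry chains of chondroitin, dermatan or keratan sulfate. The core binds collagen fibrils and sets how thick and how regularly spaced they become, and several members also bind growth factors such as TGF-beta. In joints the family is known from tendon, ligament, cartilage and the fibroblasts of the synovium. Class I holds decorin (Dcn), biglycan (Bgn) and asporin (Aspn), class II lumican (Lum), fibromodulin (Fmod), PRELP (Prelp) and osteomodulin (Omd), class III osteoglycin (Ogn) and class V podocan (Podn).

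All but Bgn and Podn lie in 3 clusters of family members in the mouse genome (GRCm39, GENCODE annotation). Dcn (chr10:97315275-97358155, plus strand, 8 exons) and Lum (chr10:97400990-97408577, plus strand, 3 exons) are 42.8 kb apart, followed by the related genes Kera and Epyc. Prelp (chr1:133837335-133857971, minus strand, 3 exons) and Fmod (chr1:133964992-133976015, plus strand, 3 exons) are 107 kb apart, with the related gene Optc 1.06 kb beyond Prelp. Aspn (chr13:49697609-49721057, plus strand, 8 exons), Omd (chr13:49735938-49746298, plus strand, 3 exons) and Ogn (chr13:49761349-49780412, plus strand, 7 exons) follow the related gene Ecm2. Bgn (chrX:72527208-72539541, plus strand, 8 exons) and Podn (chr4:107871988-107889534, minus strand, 13 exons) stand alone. No other protein-coding gene lies within the chromosome 1 and chromosome 10 clusters, whereas Cenpp, a centromere protein gene on the minus strand, spans the chromosome 13 cluster. Its exons overlap those of Ogn over 1155 bases and those of Aspn over 267 bases, and the long non-coding RNA gene Gm15851 overlaps Prelp exons over 350 bases on the other strand. On soft, intermediate and stiff plates Cenpp was at 156, 166 and 109 normalized counts and Gm15851 at 14.4, 17.9 and 16.4. Whether the authors' counting used strand is not given in the sources used here, so reads of these overlaps could be shared for Ogn and Aspn, while for Prelp the partner's level was far below its own. In an alignment of transcripts, no member matched another member over at least 100 bases at 90% identity.

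The sequence upstream of the start site is shown for the 3 most abundant genes of the family, Bgn, Fmod and Prelp, and for Aspn, the member with the ratio of stiff to soft closest to 0. The RefSeq promoter table (GRCm38.p6) held entries for 7 of the 9 genes, other than Dcn and Lum. Each full entry matched the gene's own chromosome in GRCm39 exactly once, and its 250 upstream bases form the window. Positions are those of the match in GRCm39, sequences run 5′ to 3′ on the strand of the gene, and 13 exonic bases were left off the Prelp window. Capitals mark TATAAA, the TATA box, on either strand.
Fmod, chr1:133964742-133964991, plus strand: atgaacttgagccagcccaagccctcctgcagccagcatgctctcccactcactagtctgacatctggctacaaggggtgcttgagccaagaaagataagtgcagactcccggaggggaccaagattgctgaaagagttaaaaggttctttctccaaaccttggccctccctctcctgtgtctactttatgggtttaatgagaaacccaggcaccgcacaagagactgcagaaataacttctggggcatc
Prelp, chr1:133849153-133849389, minus strand: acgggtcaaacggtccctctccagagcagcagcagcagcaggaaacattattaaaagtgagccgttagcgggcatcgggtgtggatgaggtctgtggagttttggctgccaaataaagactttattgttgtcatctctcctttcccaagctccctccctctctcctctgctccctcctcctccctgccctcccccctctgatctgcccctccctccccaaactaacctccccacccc
Bgn, chrX:72526957-72527206, plus strand: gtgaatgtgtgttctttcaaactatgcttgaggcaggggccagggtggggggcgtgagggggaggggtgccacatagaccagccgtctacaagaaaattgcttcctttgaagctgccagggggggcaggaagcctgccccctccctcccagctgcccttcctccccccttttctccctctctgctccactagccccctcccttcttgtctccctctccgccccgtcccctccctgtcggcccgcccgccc
Aspn, chr13:49697669-49697918, plus strand: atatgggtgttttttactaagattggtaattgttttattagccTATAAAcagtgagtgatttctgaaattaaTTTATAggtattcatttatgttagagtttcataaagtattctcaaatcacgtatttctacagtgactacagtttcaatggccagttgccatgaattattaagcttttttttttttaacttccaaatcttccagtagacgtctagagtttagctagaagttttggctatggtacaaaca
The window of Fmod ends at the annotated gene start and that of Bgn 1 base before it, whereas those of Prelp and Aspn lie inside the gene model, upstream of a later start. The Aspn window was AT-rich, with a GC content of 30% and 2 matches to TATAAA, and the Bgn window was GC-rich at 64.4%, with 7 CG dinucleotides. Fmod and Prelp, neighbours on chromosome 1, had windows of 51.2% and 55.6% GC with 2 and 5 CG dinucleotides, beside medians of 52.4% GC and 6 CG dinucleotides over all windows of the table. The motifs searched, on both strands, were TATAAA, then GGAATG as the motif of TEAD factors, then TGANTCA as the motif of AP-1, and the CArG box of serum response factor, which can itself contain TATAAA. Of 32851 windows of the same length, 12.4% held TATAAA, 12.6% the TEAD motif, 6.75% the AP-1 motif and 1.47% the CArG box. The windows of Bgn, Fmod, Prelp, Omd and Podn held none of these motifs, and the Ogn window held 1 stretch that reads as a TATA box on both strands, plus 1 TEAD motif that is not within the non-exonic part of the window. A match describes letters in the window, not a bound site.

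Reads counted to genes summed to 25487064 on soft, 28081600 on intermediate and 26474862 on stiff, recovered as whole reads from the deposited normalized counts. Intervals in brackets are exact 95% intervals that cover counting error only, and amplified reads are not independent molecules, so differences between cultures lie outside them. Over all genes tested, the median log2 difference between stiff and soft was 0.0049, with quartiles of -0.16 and 0.23. Fibroblast genes were abundant in every library, and genes used as markers of the labelled cell type, telocytes, differed in level. Efhd1, which drives the Cre, had 10, 5 and 3 reads on soft, intermediate and stiff, Gli1 9, 12 and 8, and Kit 41, 41 and 44. Pdgfra, which fibroblasts share, had 5739, 6681 and 4991 reads, Cd34 229, 257 and 310, and Foxl1 232, 247 and 181. All 12 macrophage marker genes were present in every library and summed to 28743 normalized counts on soft, 35880 on intermediate and 63998 on stiff. Each of those 12 was higher on stiff than on soft, by log2 ratios of 0.95 to 1.49. Their part in the values of the proteoglycan genes was not tested. The endothelial genes Cdh5 (5, 3 and 0 reads) and Pecam1 (12, 13 and 4 reads) had few reads.

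The family was dominated by Bgn, and its members went different ways with stiffness. On stiff against soft, Bgn, Fmod, Prelp and Podn were higher and Dcn and Lum lower beyond counting error. Ogn was higher beyond counting error with the deposited scaling but not with plain library totals or upper quartile factors, and the intervals of Omd (higher) and Aspn (lower) included 0. By sign alone 6 of the 9 were higher and 3 lower, beside 51.1% and 48.9% of all genes tested. Prelp and Podn had the largest positive log2 ratios, 0.66 and 0.78, and Dcn the most negative, -0.44. The 9 genes together took 0.523% of all reads counted to genes on soft, 0.596% on intermediate and 0.658% on stiff. Because the RNA is from bulk cultures, fewer cells that express a gene and less RNA per cell cannot be told apart.

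**Figure D1:**
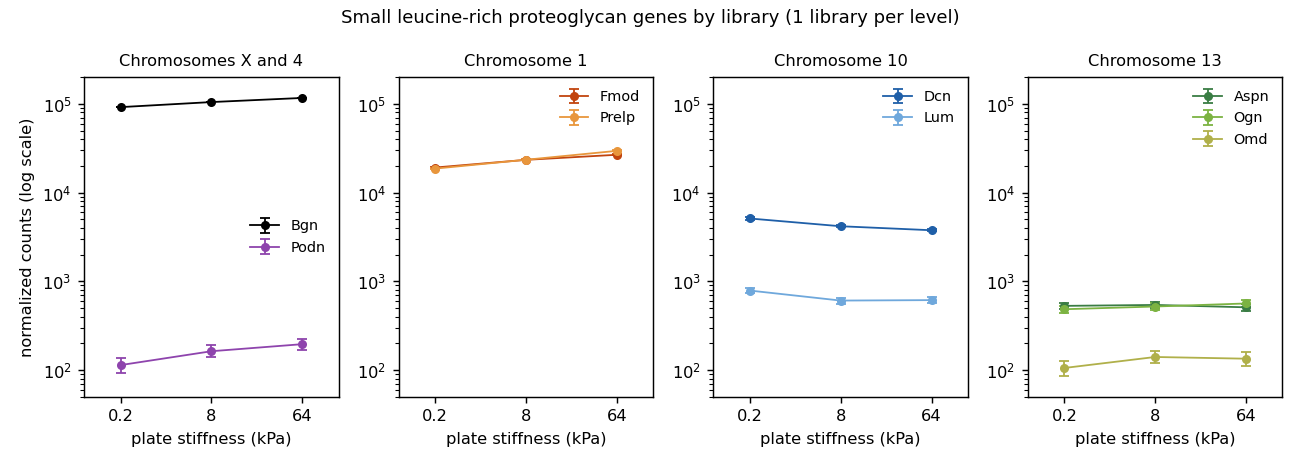
Normalized counts (log scale) of the 9 genes against plate stiffness in kPa, 1 panel per chromosome group, with 95% counting intervals as bars and 1 library per point. Bgn, Fmod, Prelp, Podn and Ogn are higher at each level than at the one before, and Dcn is lower at each.

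Bgn, a class I member that binds collagen and TGF-beta and can signal through Toll-like receptors when released, was the most abundant of the 9 genes. Its normalized counts were 91849 on soft, 104743 on intermediate and 116582 on stiff. The intermediate library was between the other two and no counting interval overlapped. The log2 ratio was 0.19 (0.18 to 0.20) from soft to intermediate, 0.15 (0.14 to 0.17) from intermediate to stiff and 0.34 (0.33 to 0.36) over both steps, an increase of 26.9%. This ratio was at the 82.1 percentile of all genes tested, so many genes had larger ones.

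Dcn, the class I member named for decorating collagen fibrils and known to sequester TGF-beta, went the other way. It was at 5107 normalized counts on soft, 4176 on intermediate and 3765 on stiff. The soft library was the highest and the stiff library the lowest, with no overlap of the intervals. From soft to intermediate the log2 ratio was -0.29 (-0.35 to -0.23), from intermediate to stiff -0.15 (-0.21 to -0.09) and from soft to stiff -0.44 (-0.50 to -0.38). That places Dcn at the 5.15 percentile of all genes. Reads of Bgn outnumbered those of Dcn by 17.98 times (17.5 to 18.5) on soft, 25.1 times (24.3 to 25.9) on intermediate and 31.0 times (29.97 to 32.01) on stiff.

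Aspn, the class I member with an aspartate-rich stretch that competes with decorin for collagen, was nearly level. Its normalized counts were 529 on soft, 542 on intermediate and 509.7 on stiff. The 3 counting intervals overlapped. Stiff against soft, its log2 ratio was -0.05 (-0.23 to 0.13), which is not separable from 0 at this depth of 497 to 575 reads.

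In class II, Fmod encodes the keratan sulfate proteoglycan that binds collagen type I and takes part in fibril assembly in tendon. It was at 19164 normalized counts on soft, 23391 on intermediate and 26686 on stiff. Each level was above the one before beyond counting error, with log2 ratios of 0.29 (0.26 to 0.32) and 0.19 (0.16 to 0.22) for the steps. Over both steps the ratio was 0.48 (0.45 to 0.50), an increase of 39.2%.

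Prelp encodes a proline- and arginine-rich protein that binds heparan sulfate and collagen and anchors basement membranes to connective tissue. Its normalized counts were 18637 on soft, 23444 on intermediate and 29546 on stiff. The steps were of like size, 0.33 (0.30 to 0.36) and 0.33 (0.31 to 0.36) on the log2 scale, and together gave 0.66 (0.64 to 0.69), an increase of 58.5%. Prelp had fewer reads than Fmod on soft, 0.973 for each Fmod read (0.953 to 0.993), a like number on intermediate, 1.002 (0.985 to 1.02), and more on stiff, 1.11 (1.09 to 1.13).

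Lum, which encodes the class II keratan sulfate proteoglycan known for corneal transparency, was lower on stiff than on soft, as Dcn was. It was at 787 normalized counts on soft, 607 on intermediate and 614 on stiff. The soft library was above both others, and these overlapped each other. The log2 ratio was -0.37 (-0.53 to -0.22) from soft to intermediate, 0.02 (-0.15 to 0.18) from intermediate to stiff and -0.36 (-0.51 to -0.20) from soft to stiff. The number of Dcn reads for each Lum read was 6.49 (6.01 to 7.01), 6.88 (6.33 to 7.48) and 6.13 (5.62 to 6.69) in the 3 libraries, with overlapping intervals. Fmod and Lum, which bind a shared site on collagen, parted: Fmod reads outnumbered Lum reads by 24.3 times (22.6 to 26.2) on soft, 38.5 times (35.6 to 41.7) on intermediate and 43.4 times (40.1 to 47.2) on stiff.

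Omd, a class II protein of bone matrix that binds mineral and integrins, was among the lowest of the 9. Its values were 106 normalized counts on soft, 140.5 on intermediate and 134 on stiff, from 103, 149 and 131 reads. The soft library was the lowest, and its interval overlapped those of both other libraries. The log2 ratio was 0.41 (0.04 to 0.79) from soft to intermediate, 0.34 (-0.04 to 0.73) from soft to stiff and -0.06 (-0.41 to 0.28) from intermediate to stiff.

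Ogn, the class III member also known as mimecan, was at 485 normalized counts on soft, 520.4 on intermediate and 563 on stiff. The stiff library was the highest and all 3 intervals overlapped. Stiff against soft, its log2 ratio was 0.21 (0.04 to 0.40), and neither step alone was separable from 0, with 0.10 (-0.08 to 0.28) and 0.11 (-0.06 to 0.29). Scaling by plain library totals or by upper quartile factors gave 0.16 for stiff to soft, a shift larger than the distance of the interval from 0.

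Podn, the class V member, encodes podocan, which binds collagen type I and is known from the vessel wall and kidney. It was at 114 normalized counts on soft, 163 on intermediate and 196 on stiff, from 111, 173 and 191 reads. The soft library was the lowest beyond counting error, and the other libraries overlapped. Its log2 ratios were the largest of the family, 0.52 (0.17 to 0.88) from soft to intermediate and 0.78 (0.44 to 1.13) from soft to stiff, an increase of 72.1%. From intermediate to stiff the ratio was 0.26 (-0.04 to 0.57).

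The family's ratios are counted here beside those of all genes with a mean of at least 50. For stiff against soft, 2 of the 9 genes (Prelp and Podn) reached a log2 ratio of 0.5 upward, as 11.8% of all genes did. None reached -0.5, which 3.77% of all genes did, and none reached 1 in either direction, which 3.6% did. For intermediate against soft, Podn alone reached 0.5, with a background of 3.94%. Its ratio of 0.52 was under 0.5 with a pseudocount of 10, plain library totals, upper quartile factors or a length and GC trend subtracted (0.45). For this comparison no member reached -0.5 (0.657% of all genes) and none reached 1 in either direction (0.168%). For stiff against intermediate, no member reached 0.5 upward (5.42% of all genes), 0.5 downward (3.42%) or 1 in either direction (1.25%). The counting interval of stiff to soft lay above 0 for Bgn, Fmod, Ogn, Prelp and Podn, 5 of 9, against 31.3% of all genes. It lay below 0 for Dcn and Lum, 2 of 9, against 25.9%. Values were higher at both steps for the same 5 genes with intervals above 0, which holds for 30.2% of all genes, and lower at both steps for Dcn alone, which holds for 25.6%. The median log2 ratio over the 9 genes was 0.34 for stiff to soft, 0.19 for intermediate to soft and 0.11 for stiff to intermediate, beside 0.0049, 0.012 and 0.0061 over all genes. All 3 comparisons share libraries and are not independent of each other.

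**Figure D2:**
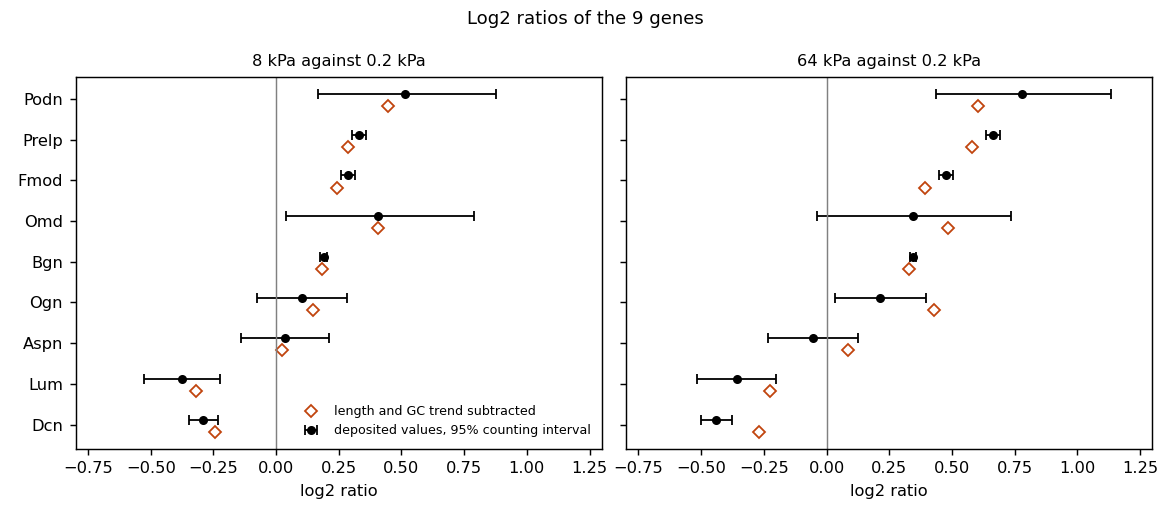
Log2 ratios of the 9 genes for intermediate to soft (left) and stiff to soft (right), from the deposited values with 95% counting intervals (black points and bars) and after subtraction of a trend on length and GC content (open diamonds). Podn and Prelp have the largest ratios of stiff to soft, 0.78 and 0.66, and Dcn the lowest, -0.44, and the sign of Aspn turns with the trend.

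Levels of different genes were compared as normalized counts per kilobase of the canonical transcript. Bgn stood at 37939 per kilobase on soft, 43264 on intermediate and 48154 on stiff, places 28, 18 and 19 among 11626 genes with a known length. Fmod followed with 6142, 7497 and 8553 per kilobase, and Prelp with 4312, 5424 and 6836. Dcn was at 837, 684 and 617 per kilobase, below Prelp in each library by a wide margin. Lum had 320.1, 247 and 249.7 per kilobase and Aspn 223, 229 and 215, with overlapping intervals on intermediate and stiff. Ogn reached 93.7, 101 and 109 per kilobase, and lower still were Omd with 50.9, 67.8 and 64.8 and Podn with 35.9, 51.4 and 61.8. Omd and Podn overlapped in their intervals in all 3 libraries, on stiff with 54.2 to 76.9 against 53.3 to 71.2 per kilobase. The order Bgn, Fmod, Prelp, Dcn, Lum, Aspn, Ogn, Omd, Podn was the same in all 3 libraries. It depends on the length used: per kilobase of all annotated exons Aspn came before Lum, and per kilobase of coding sequence Ogn came before Aspn in each library and, on stiff, Prelp before Fmod, Ogn before Lum and Podn before Omd.

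**Figure D3:**
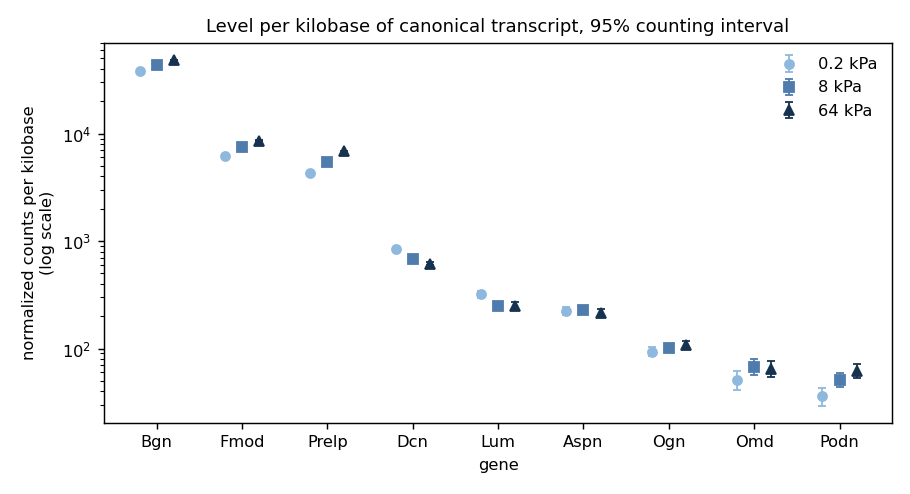
Normalized counts per kilobase of canonical transcript (log scale) of the 9 genes in the soft, intermediate and stiff libraries, with 95% counting intervals as bars. Bgn lies between 37939 and 48154, above every other gene of the family, and Omd and Podn lie under 70 per kilobase.

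The make-up of the family moved as well. Of the summed level per kilobase of the 9 genes, Bgn took 75.9% on soft, 75.2% on intermediate and 74.2% on stiff. Fmod took 12.3%, 13.02% and 13.2% of that sum and Prelp 8.63%, 9.42% and 10.5%. Per kilobase of all exons Fmod took 22.1%, 23.2% and 23.3%, and per kilobase of coding sequence Prelp took 13.3%, 14.6% and 16.2%. Per kilobase of canonical transcript Dcn took 1.68%, 1.19% and 0.951%, and Lum 0.641%, 0.429% and 0.385%. Of the family's reads, without division by length, Dcn took 3.73% (3.63 to 3.84) on soft, 2.65% (2.57 to 2.73) on intermediate and 2.11% (2.04 to 2.18) on stiff. These shares do not depend on the scaling between libraries, since they are taken within each library. The summed level was 49954 per kilobase on soft, 57565 on intermediate and 64861 on stiff.

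Members that share a cluster were compared by how far apart their ratios lay. Distances between members of different clusters were not computed, so no likeness particular to neighbours can be read from these values. Dcn and Lum, the pair on chromosome 10, were 0.12 apart in the plane of their log2 ratios of intermediate and stiff to soft, and Fmod and Prelp on chromosome 1 were 0.19 apart. On chromosome 13 the distances were 0.28 for Aspn and Ogn, 0.33 for Omd and Ogn and 0.55 for Aspn and Omd. Within the chromosome 13 cluster the stiff-to-soft log2 ratio was -0.32 for Ecm2 and -0.52 for Cenpp, and within 55.2 kb of it 0.52 for Iars1, 0.38 for Nol8 and 0.24 for Ippk. Within 96.0 kb of the chromosome 1 cluster it was 0.34 for Atp2b4, or -0.10 with the length and GC trend described below subtracted, and 0.25 for Btg2, and Chit1 and Lax1 were below 50 normalized counts. The genes compared on chromosome 10 lay farther off, Btg1 (-0.10) at 0.857 Mb, Atp2b1 (0.03) at 1.23 Mb and Poc1b (-0.39) at 1.42 Mb from the cluster. The pattern of both ratios was compared with 10611 genes outside the family with a mean of at least 100. Dcn lay closest to Kdm5d (distance 0.0097), Med31 (0.023) and Gulp1 (0.024), with 77 genes within 0.1. Bgn lay closest to Kctd21 (0.0025), Amigo1 (0.0056) and Kank1 (0.0063), with 446 genes within 0.1, and Fmod closest to Apba1 (0.0059), Zdhhc8 (0.0083) and Tfe3 (0.0096), with 230 genes within 0.1.

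Transcript composition moved with the ratios of stiff to soft. Across 11626 genes, Spearman's rho of the log2 ratio with GC content was 0.26 and with transcript length 0.26, over points that share the same libraries and are not independent. Over the 9 family genes rho with GC content was 0.60 and with length -0.07. The canonical transcripts of Dcn and Lum have 39.6% and 41.9% GC, and the median log2 ratio was -0.17 in the class of Dcn, 35 to 40% GC (490 genes), and -0.08 in that of Lum, 40 to 45% (2129 genes). Those of Bgn, Prelp, Fmod and Podn have 52.5%, 51.9%, 53.7% and 57.2%, and the median was 0.05 in the class of 50 to 55% GC (3093 genes) and 0.11 in that of Podn, 55 to 60% (2249 genes). Aspn, Omd and Ogn have the lowest GC content, 34.4%, 35.1% and 35.3%, with ratios of -0.05, 0.34 and 0.21. After a local trend on length and GC content was subtracted, the stiff-to-soft log2 ratio was 0.33 for Bgn, 0.39 for Fmod, 0.58 for Prelp, 0.61 for Podn, 0.43 for Ogn, 0.48 for Omd and 0.08 for Aspn. It was -0.27 for Dcn and -0.23 for Lum, nearer to 0 than before. With the trend subtracted, 7 of the 9 genes were higher on stiff, where the median log2 ratio over all genes was -0.0010. Prelp and Podn still passed 0.5 (7.71% of all genes) and none passed -0.5 (4.04%). That median and these 2 shares are also the background of the trend-subtracted counts of the lists below. The ratio of stiff to intermediate for Dcn was -0.03 with the trend subtracted.

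**Figure D4:**
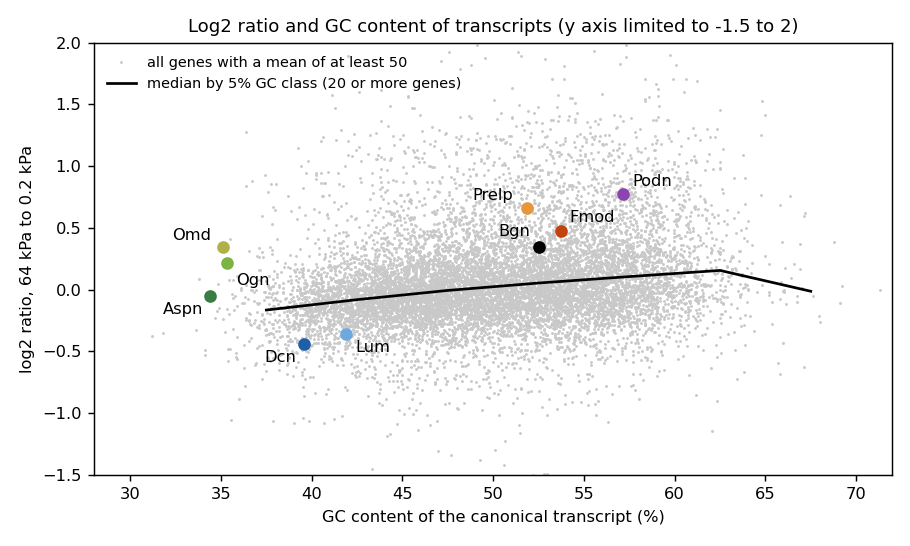
Log2 ratio of stiff to soft against GC content (%) of the canonical transcript, with the 9 genes named, all genes with a mean of at least 50 as grey points and their median by 5% class of GC as a line. Dcn (-0.44) and Lum (-0.36) lie below the line, and Prelp (0.66), Podn (0.78), Fmod (0.48) and Bgn (0.34) above it. Omd (0.34) and Ogn (0.21) lie at a lower GC content than the line covers.

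Of 9 further genes of the family or close to it, 7 were below 50 normalized counts. Tsku, which encodes the class IV protein tsukushi, was at 2215 normalized counts on soft, 2254 on intermediate and 2701 on stiff, a log2 ratio of stiff to soft of 0.29 (0.20 to 0.37) that was 0.11 with the trend subtracted. Ecm2 was at 164, 156 and 131 normalized counts, with a ratio of -0.32 (-0.67 to 0.02) that counting error does not separate from 0 and that was -0.15 with the trend subtracted. The cartilage gene Chadl was at 25.6, 13.2 and 28.7 normalized counts and Podnl1, the relative of podocan, at 41.0, 27.3 and 39.0. Optc was at 3.08, 6.60 and 10.3, Nyx at 2.05, 0.943 and 10.3 and Chad at 5.13, 5.66 and 2.05. Kera and Epyc, which share the chromosome 10 cluster with Dcn and Lum, had at most 2.05 normalized counts in any library.

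Genes that build the sugar chains of these proteins were described as 4 lists, with counts beside the shares of all genes given above (51.1% higher, 48.9% lower, 11.8% past 0.5, 3.77% past -0.5). Of the 7 enzymes that make the linker by which chains attach to the core protein, 3 were higher and 4 lower on stiff than on soft, with a median log2 ratio of -0.11. The xylosyltransferases Xylt1 (0.49) and Xylt2 (0.42) had the highest ratios and B3galt6 (-0.34) and the xylose phosphatase Pxylp1 (-0.74) the lowest. With the length and GC trend subtracted Xylt1 was at -0.02 and Xylt2 at 0.06, and 1 of the 7 was higher. Only Pxylp1 passed 0.5 in size, going from 5290.0 normalized counts on soft to 3171 on stiff, and none passed 1. Of 14 chondroitin and dermatan enzymes with enough reads, 9 were higher and 5 lower, with a median of 0.04. Chpf (0.39) and Chsy1 (0.32), which extend the chain, were highest, and Dsel (-0.44) and the sulfotransferase Chst11 (-0.62) lowest, with Chst11 alone past 0.5 and none past 1. With the trend subtracted Chpf was at 0.21 and Chsy1 at 0.07, below Ust at 0.23, and Chst15 (-0.55) passed 0.5 downward beside Chst11 (-0.77). The 5 measured keratan sulfate enzymes were all lower, as were 48.9% of all genes, with a median of -0.17, from B3gnt2 (-0.08) and B4galt4 (-0.09) to Chst2 (-0.33) and Chst1 (-0.57). Chst1 alone passed 0.5 and none passed 1. Once the trend was subtracted Chst2 passed 0.5 downward too, both at -0.73. Of 8 genes of sulfate supply and sulfation, 3 were higher and 5 lower and none passed 0.5, with a median of -0.03. Tpst2 (0.25) and Papss2 (0.19) were highest and Slc35b2 (-0.30) and Tpst1 (-0.42) lowest.

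Among 9 proteases known to process or cleave the family, 5 were higher and 4 lower, beside 51.1% and 48.9% of all genes. Their median was 0.02. Adamts5 (0.81) was the only one past 0.5 upward (11.8% of all genes). Htra1 (0.27) and Bmp1 (0.27), the protease that removes the propeptide of biglycan, followed. Mmp3 went from 43770.3 normalized counts on soft to 33751 on intermediate and 19886 on stiff, a log2 ratio of -1.14. Mmp13 had -1.02, so 2 passed 1 downward, beside 3.6% of all genes past 1 in either direction. After subtraction of the trend Mmp3 and Mmp13 were at -1.02 and -0.88, so 1 passed 1. The list's median was then -0.07 with 4 of 9 higher, Adamts5 was at 0.72 and Bmp1 at 0.02. Of 9 growth factors and receptors known to bind the family, 8 were higher and 1 lower, beside the same 51.1% and 48.9% of all genes. Their median was 0.34. Of these, 3 passed 0.5 and 1 passed 1, beside 11.8% and 3.6% of all genes. Lrp1, an endocytic receptor of decorin, had 1.24 and Igf1r 0.87, while Tgfb1 had 0.03 and Tlr4 -0.03. With the length and GC trend subtracted, Lrp1, whose transcript is long, was at 0.14, Igf1r at 0.19, Tgfb1 at -0.07 and Tlr4 at 0.12, and Tgfb3 (0.61) alone passed 0.5.

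All 8 genes of the collagens that the family binds were higher on stiff than on soft, as were 51.1% of all genes, with a median of 0.56. Of these, 4 passed 0.5 (11.8% of all genes) and 1 passed 1 (3.6% in either direction). Col1a1 was at 78648 normalized counts on soft, 110715 on intermediate and 151834 on stiff, a log2 ratio of 0.95. Col5a1 had the highest ratio, 1.303, and Col1a2 (0.28) and Col3a1 (0.26) were lowest. With the trend subtracted the median of these 8 was 0.15 and 7 were higher, Col1a1 being at 0.39 and Col1a2 at -0.0060. Col5a1, at 0.57, was then the only one past 0.5 and none passed 1. Of the other proteoglycans, 6 of 12 had a mean of at least 50 and all 6 were higher, with a median of 0.57. After the trend was subtracted the median was 0.30 and 4 of the 6 were higher, Agrn being at -0.46 and Cspg4 at -0.24. Hspg2, which encodes the basement membrane proteoglycan perlecan, had 1.71 and Prg4, which encodes the joint lubricant lubricin, 0.62. Vcan (0.23) and Agrn (0.22) were lowest, 4 of the 6 passed 0.5 and 1 passed 1. After subtraction of the trend Hspg2 was at 0.55 and Prg4 at 0.60, 3 passed 0.5 and none passed 1. Dcn and Lum were lower on stiff, where Col1a1 was higher with and without the trend subtracted.

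Cell markers were described in the same way, with 51.1% of all genes higher, 11.8% past 0.5, 3.77% past -0.5 and 3.6% past 1 in size as the background. Of 7 fibroblast markers 5 were higher and 2 lower, with a median of 0.25, 1 past 0.5 and none past 1. With the trend subtracted the median was 0.10, 4 were higher and none passed 0.5. Col1a1 (0.95) and Thy1 (0.37) were highest, and Pdgfrb (-0.01) and Pdgfra (-0.20) lowest; Dcn was likewise lower on stiff. Of the 6 telocyte markers, 3 had a mean of at least 50: Cd34 (0.44), Pdgfra (-0.20) and Foxl1 (-0.36), with none past 0.5 and a median of -0.20 that was -0.33 with the trend subtracted. The 12 macrophage markers had a median of 1.26, from 0.95 for Tyrobp and 0.98 for Itgam to 1.41 for Csf1r and 1.49 for C1qa, all 12 past 0.5 and 10 past 1. Of 8 endothelial and mural markers 3 were measured, Mcam (0.86), Cspg4 (0.53) and Rgs5 (-0.08), with a median of 0.53, 2 past 0.5 and none past 1. With the trend subtracted that median was 0.025, Cspg4 was at -0.24 and Rgs5 at 0.02. Of 10 tendon, cartilage and bone markers 8 were measured, 4 higher and 4 lower, with a median of 0.01. Col2a1 (1.46) and Runx2 (0.38) were highest and Tnmd (-0.86) and Sp7 (-0.91) lowest, with Col2a1 alone past 1, and Tnmd and Sp7 past 0.5 downward. After subtraction of the trend Col2a1 was at 0.84 and Runx2 at 0.15.

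**Figure D5:**
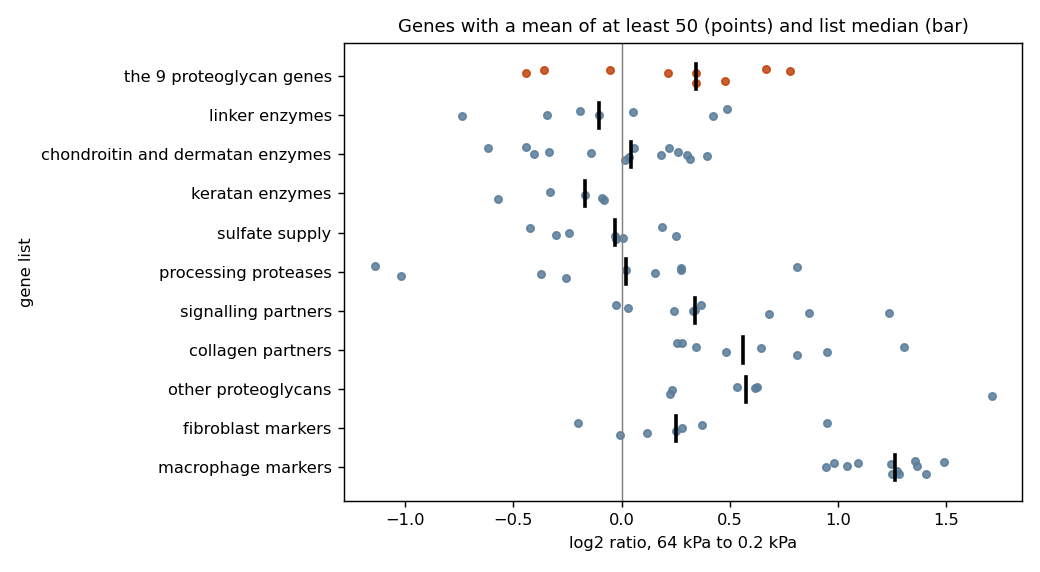
Log2 ratio of stiff to soft of each gene with a mean of at least 50 in the family and in 10 gene lists, with the list median as a bar. The family spans -0.44 to 0.78 around 0.34, the collagen genes lie above 0 throughout and the macrophage markers between 0.95 and 1.49.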

How the data were processed

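RNA of 3 stiffness levels, 1 library each, had been sequenced from stranded poly(A) libraries, per the labels' protocols. The authors deposited signal values: counts per gene scaled by 1 size factor for each library, with DESeq2 according to the name of the deposited table. The submitters' processing notes name bcl2fastq 2.20.0, STAR 2.7.9a, featureCounts of Subread 2.0.1, DESeq2 1.34.0 and the build GRCm39, without roles or order. The annotation and the strand setting are not given in the sources used here. The 3 deposited files held identical values. In each library 100.0% of values were whole multiples of 1 read within 0.01, and 1 read was worth 1.03, 0.943 and 1.03 normalized counts on soft, intermediate and stiff.

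Log2 ratios used a pseudocount of 1, which understates changes of low genes, and genes whose mean reached 50 normalized counts. Intervals of ratios are exact (Clopper-Pearson) for how reads divide between 2 libraries, without a pseudocount, and those of levels are exact Poisson intervals. A count test needs replicates, so none was made and no p-value is given. Lengths, GC content and positions came from GENCODE vM39, and the trend was fitted locally and linearly on log2 length and GC content, each gene with its 300 nearest of 13873 genes. The calculation was tested on simulated data. Python 3.11.15, scipy 1.17.1, scikit-learn 1.9.0, and R 4.3.3 with edgeR 4.0.16 for scaling factors were used.

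The 9 genes and all gene lists were chosen with earlier results of these data known, so no list is independent evidence of its direction. Named by a set rule were the 9 genes, their 9 relatives and the 2 highest and 2 lowest ratios of each list. The rule also covered genes next to the clusters and the 3 genes closest in pattern to Dcn, Bgn and Fmod. Some other genes of the lists are named outside it, such as Bmp1, Ust, Chst15, Tgfb3, Efhd1, Gli1, Kit, Cdh5 and Pecam1. Alternatives were other pseudocounts, scalings, minimum means, lengths and the trend correction.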

Additional observations from a re-analysis of the deposited data

How the results depend on the processing

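Of the 9 genes, no ratio whose counting interval excluded 0 changed sign under another pseudocount, scaling or the trend correction. Among other named genes Xylt1, Col1a2, Agrn, Cspg4, Atp2b4, Atp2b1 and Tgfb1 turned from higher to lower on stiff with the trend subtracted, and Tlr4 and Rgs5 from lower to higher. Aspn (stiff to soft and stiff to intermediate) and Omd (stiff to intermediate), whose intervals include 0, turned positive when the length and GC trend was subtracted. Lum (stiff to intermediate) turned negative with plain library totals and upper quartile factors, and Aspn (intermediate to soft) with upper quartile factors. Of 27 ratios, 7 moved beyond their counting interval with plain library totals, 7 with upper quartile factors and 12 with the trend subtracted, and 0 with the other pseudocounts or TMM factors. The number of genes past 0.5 for intermediate to soft was 1, and 0 with a pseudocount of 10, plain library totals, upper quartile factors, the trend subtracted or a minimum mean of 200. For stiff to soft it was 2, and 1 with a minimum mean of 200, which drops Podn. The family's median for stiff to soft, 0.34, became 0.32 with a pseudocount of 10, 0.29 with plain library totals, 0.29 with upper quartile factors and 0.39 with the trend subtracted. The share of Bgn in the family was 62.0%, 60.7% and 59.6% on soft, intermediate and stiff per kilobase of all exons, 67.4%, 66.7% and 65.6% per kilobase of coding sequence, an alternative chosen after seeing the data, and 67.2%, 66.4% and 65.3% with no division by length. No paired analysis was possible because each level had 1 library, and no library could be left out. Depth limits Omd and Podn, with 103 to 191 reads in a library.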
